A study of Mus musculus with 20 samples.

Results

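The 10 genes described here are the transcription factor NRF2 (gene Nfe2l2), its inhibitor Keap1 and 8 of the classic antioxidant genes that NRF2 activates, namely Hmox1, Nqo1, Gclc, Gclm, Txnrd1, Srxn1, Slc7a11 and Osgin1. They were taken by gene symbol from the deposited expression tables, and all 10 were found among the 19716 genes listed in either experiment. RNA of mouse retinas, harvested per the labels after the cornea and lens had been taken off, was sequenced, with 5 libraries in each of 4 groups. Wildtype (Atf6+/+) and Atf6-knockout (Atf6-/-) mice underwent oxygen-induced retinopathy (OIR), in which pups and their nursing mothers are kept in 75% oxygen from postnatal day (P) 7 to P12 and then returned to room air, and retinas were collected at P17. In the second experiment, both eyes of wildtype mice at P30 received 1 µL of 10 µM Ceapin-A7 or of vehicle without it (PBS). Ceapin-A7 is a chemical inhibitor of ATF6 signaling. Retinas were collected after 24 h. All mice were on the C57BL/6J background and both sexes were used. The vehicle was saline with a small fraction of DMSO that the labels and the methods give differently. By the methods the Ceapin-A7 solution held less DMSO than the control solution, so in the second experiment drug and DMSO cannot be told apart. The knockout allele is a germline premature stop codon in exon IV that affects every cell type. Neither the labels nor the methods state that the 5 retinas of a group came from 5 mice, so the p-values below measure the spread between these samples, which may in part be technical. The comparisons ask how loss or inhibition of ATF6, a sensor of protein folding stress in the endoplasmic reticulum, bears on the RNA of these genes.

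In unstressed cells KEAP1 binds NRF2 in the cytoplasm and delivers it to an ubiquitin ligase for degradation. Oxidants and electrophiles modify cysteines of KEAP1, NRF2 then accumulates without any need for new NRF2 RNA, and together with small MAF proteins it binds antioxidant response elements (AREs) in the DNA near its target genes. The targets make glutathione, regenerate thioredoxin and peroxiredoxin, degrade haem and detoxify quinones, functions on which the retina, a tissue of high oxygen use and light exposure, relies.

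The core of the ARE, TGACNNNGC, is the letter pattern by which these genes are usually joined, so the places where it occurs are shown here. It was searched on both strands of the RefSeq promoters of the GRCm38.p6 build (250 bases before to 50 bases after each start site). Promoters were found for 8 of the 10 genes, and 4 of these 8 held the core. Among all 27025 genes with a promoter of this length, 3781 genes (14%) held it. The 4 matches are printed 5′ to 3′ on the strand that reads TGACNNNGC, with the core in capitals and 10 bases on each side in lower case.
Nfe2l2, chr2:75704885-75704913, minus strand: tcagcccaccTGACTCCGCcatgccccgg
Gclm, chr3:122245413-122245441, minus strand: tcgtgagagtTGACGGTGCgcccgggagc
Txnrd1, chr10:82859104-82859132, minus strand: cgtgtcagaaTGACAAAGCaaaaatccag
Srxn1, chr2:152105542-152105570, minus strand: tgtctcactcTGACCTAGCtgcccactgc
Counted from the start site of the gene, the cores lie at -240 to -232 in Nfe2l2, at -134 to -126 in Gclm, at -92 to -84 in 1 of the 3 Txnrd1 promoters, and at 29 to 37 in Srxn1. None of the 4 contains TGACTCA, the site of AP-1 factors that overlaps this pattern. A match is a run of letters and not a measured binding site, and the windows of Keap1, Nqo1, Slc7a11 and Osgin1 without one say nothing about elements outside them.

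Expression is given as FPKM, fragments scaled to the length of the transcript and to the mapped fragments of the library, so that levels can be compared between genes. No fragment counts enter here. The methods state a read depth per sample, but the fragments of each library are not given. The 7 rod markers used here, among them Sag and Gnat1, summed to between 7364 and 12960 FPKM in every library, as in retina, and none of the 8 marker lists had a marker at 0 throughout. Lens RNA was present in several libraries despite the stated removal of the lens. The 11 lens markers, crystallins among them, summed to 4591, 1642, 7.60, 1614 and 22.6 FPKM in PBS 1 to 5 and to 8207, 81.8, 655.6, 75.5 and 3807 FPKM in Ceapin-A7 1 to 5. In OIR the sums were 16.8, 126.3, 9.24, 27.7 and 459.4 FPKM in Atf6+/+ 1 to 5 and at most 9.40 FPKM in Atf6-/-. The log2 of these sums entered as a covariate in an alternative fit of each experiment, whose values stand beside the results they move. PBS 4 and 5 stood apart, with rod marker sums of 7455 and 7364 against 9696 to 10964 in the other 3 PBS libraries, Glul at 254 and 330 FPKM against at least 624, and Vim at 327 and 312 FPKM against at most 189. Over 12781 genes, however, PBS 2 and 3 were the PBS libraries nearer to the Ceapin-A7 mean than to their own group. Their median distances on the log2 scale were 0.082 against 0.117 (PBS 2) and 0.066 against 0.090 (PBS 3). Over 13060 genes, Atf6+/+ OIR 4 lay nearer to the mean of the Atf6-/- OIR libraries (median distance 0.124 on the log2 scale) than to its own group (0.203), and Atf6-/- OIR 5 nearer to the Atf6+/+ mean (0.108 against 0.196). Their labels held at each of the 5 genes that passed the adjusted threshold in the OIR experiment, where all 10 libraries fell on their labelled side; these 5 were found with those labels. Atf6 RNA itself averaged 14.9 FPKM in Atf6+/+ OIR and 15.2 in Atf6-/- OIR, which checks nothing, since the allele is a stop codon.

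**Figure D1:**
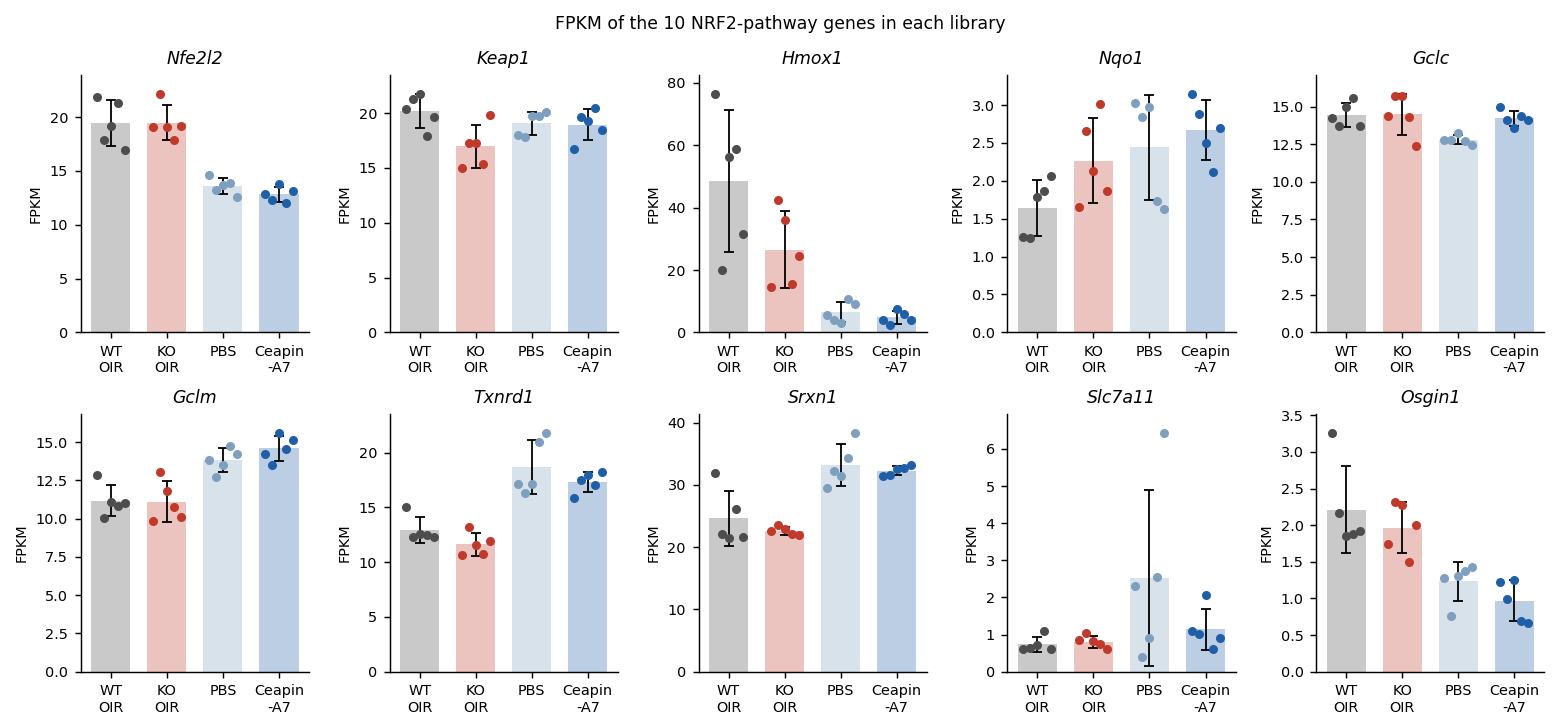
FPKM of each gene (y axes, linear, from 0) in the 4 groups; points are libraries in the order of replicates 1 to 5, bars are group means and error bars are SD (n = 5). Hmox1 averaged 48.6 FPKM in Atf6+/+ OIR and 4.79 in Ceapin-A7, while the means of Keap1 and Gclc stayed within a ratio of 1.19 and 1.13 across the groups.

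The first comparison sets Atf6-/- OIR against Atf6+/+ OIR retinas at P17. None of the 10 genes passed an adjusted p of 0.05 (limma, Benjamini-Hochberg over 15704 genes; adjusted p 0.364 to 0.978), a threshold that 0.0318% of all genes passed. Without adjustment, 3 of the 10 genes had a p of 0.05 or less, Nqo1 higher and Keap1 and Hmox1 lower in Atf6-/- OIR, where 12.7% of all genes did (6.94% higher, 5.81% lower). On FPKM as deposited the split over all genes turned from 1090 higher and 912 lower to 582 higher and 1324 lower, while these 3 genes kept their direction in all 26 alternative fits. In none of the 10 did the FPKM of the groups lie apart without overlap, as they did for 1.52% of all genes. With the exact permutation test over the 252 arrangements of 5 and 5 libraries, 0 of the 10 reached that level. The median log2 difference of the 10 genes was -0.042, beside 0.0028 over all genes.

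Nfe2l2, which encodes NRF2, had nearly the same mean in both genotypes. In Atf6+/+ OIR it measured 21.9, 17.85, 19.2, 21.34 and 16.96 FPKM, and in Atf6-/- OIR 19.06, 22.18, 19.12, 17.85 and 19.13 FPKM. The Atf6+/+ range held all but 1 of the knockout libraries. The means were 19.4 ± 2.14 and 19.5 ± 1.61 FPKM (SD, n = 5 each), a log2 difference of 0.02 with a 95% interval from -0.15 to 0.20.

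Keap1, the adaptor that holds NRF2 for degradation, was lower in Atf6-/- OIR by a small amount. Its FPKM in Atf6+/+ OIR were 20.41, 21.24, 21.77, 17.87 and 19.68, and in Atf6-/- OIR 14.98, 17.29, 17.31, 15.37 and 19.81. Of the knockout libraries 4 lay below every Atf6+/+ value, and replicate 5 lay among them. The log2 difference was -0.24 ± 0.09 (SE), 0.848-fold, with an unadjusted p of 0.0271 and an adjusted p of 0.364 (limma), and the exact permutation p was 0.0556. It was -0.31 without Atf6-/- OIR 5 and -0.29 without Atf6+/+ OIR 4, the pair of libraries that lay nearer to the other group. With array weights the adjusted p was 0.0249 (limma), in a fit in which 17.6% of all genes passed. Array weights are lower for libraries that lie far from their own labelled group. The same pair, Atf6+/+ OIR 4 and Atf6-/- OIR 5, had the largest median deviations from their groups in OIR (0.1687 and 0.1733 on the log2 scale). With the lens sum as a covariate the log2 difference was -0.26 (unadjusted p 0.0807), and with the summed pigment epithelium markers, whose values are given with Nqo1, as a covariate the log2 difference was -0.16 (unadjusted p 0.204). The unadjusted p exceeded 0.05 without Atf6+/+ OIR 1 (0.0524), 2 (0.0605) or 3 (0.0626) and without Atf6-/- OIR 1 (0.0707) or 4 (0.07). Log2 differences in this experiment declined with transcript GC content (Spearman correlation -0.464 across genes, which are not independent), Keap1 is 58.5% GC, and after removal of that trend its log2 difference was -0.12 (unadjusted p 0.0471).

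Hmox1, the inducible haem oxygenase that cleaves haem to biliverdin, iron and carbon monoxide, showed the largest log2 difference and also the widest spread. In Atf6+/+ OIR it measured 76.56, 19.91, 56.2, 58.83 and 31.5 FPKM. In Atf6-/- OIR it measured 14.63, 42.52, 35.94, 15.45 and 24.34 FPKM. Atf6+/+ replicates 1, 3 and 4 exceeded every knockout library, while replicates 2 and 5 lay within the knockout range. The means were 48.6 ± 22.7 and 26.6 ± 12.4 FPKM (SD, n = 5 each), and the log2 difference was -0.83 ± 0.38 (SE), 0.564-fold, with a 95% interval from -1.65 to -0.0043 (limma, unadjusted p 0.049, adjusted p 0.39; exact permutation p 0.111). The unadjusted p exceeded 0.05 without Atf6+/+ OIR 1 (0.124), 3 (0.0981) or 4 (0.0974) and without Atf6-/- OIR 1 (0.123), 4 (0.121) or 5 (0.0629). It was 0.05 or less in only 13 of the 26 alternative fits (limma), of which 10 leave out a library and 4 of those 10 reached it.

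Some markers of other cells moved with Hmox1 and others against it. Summed haemoglobin and Alas2 RNA, the red blood cell markers, stood at 2111, 866, 2390, 2505 and 379.6 FPKM in Atf6+/+ OIR 1 to 5 and at 406.8, 1361, 1237, 1114 and 804.4 in Atf6-/- OIR 1 to 5. The 3 Atf6+/+ libraries with the most Hmox1 were those with the most red blood cell RNA, and replicate 5, with the least, was an exception at 31.5 FPKM of Hmox1. With the log2 sum of these markers as a covariate the Hmox1 difference was -0.54 ± 0.30 (SE; unadjusted p 0.0946), and with the pigment epithelium sum it was -1.06 (unadjusted p 0.0486). With the lens sum, which in 4 of the 5 Atf6+/+ libraries lay above every Atf6-/- library, it was -1.45 (unadjusted p 0.00783, adjusted p 0.408, limma). Vim, an intermediate filament of Müller glia that is abundant in reactive glia, ran alongside Hmox1 in every group, and in 3 of the 4 groups the 5 libraries stood in the same order for both genes. Over the 20 libraries, each group centred on its mean of log2(FPKM + 0.1), Vim and Hmox1 had a Pearson r of 0.893 (Spearman correlation 0.929; 0.891 without PBS 4 and 5), Gfap and Hmox1 an r of 0.826, and Glul and Hmox1 an r of -0.726. The other markers of the Müller glia list were mixed, with an r with Hmox1 of 0.489 (Slc1a3), 0.334 (Sox9), -0.354 (Apoe), -0.514 (Rlbp1) and -0.753 (Aqp4). These are descriptions of points that share a library and its scaling, and Vim was singled out of the Müller glia list after its values were seen. The part of blood, lens or glial state in the Hmox1 difference was not tested beyond these values, and in whole retina fewer cells of a type cannot be told apart from less RNA per cell.

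**Figure D2:**
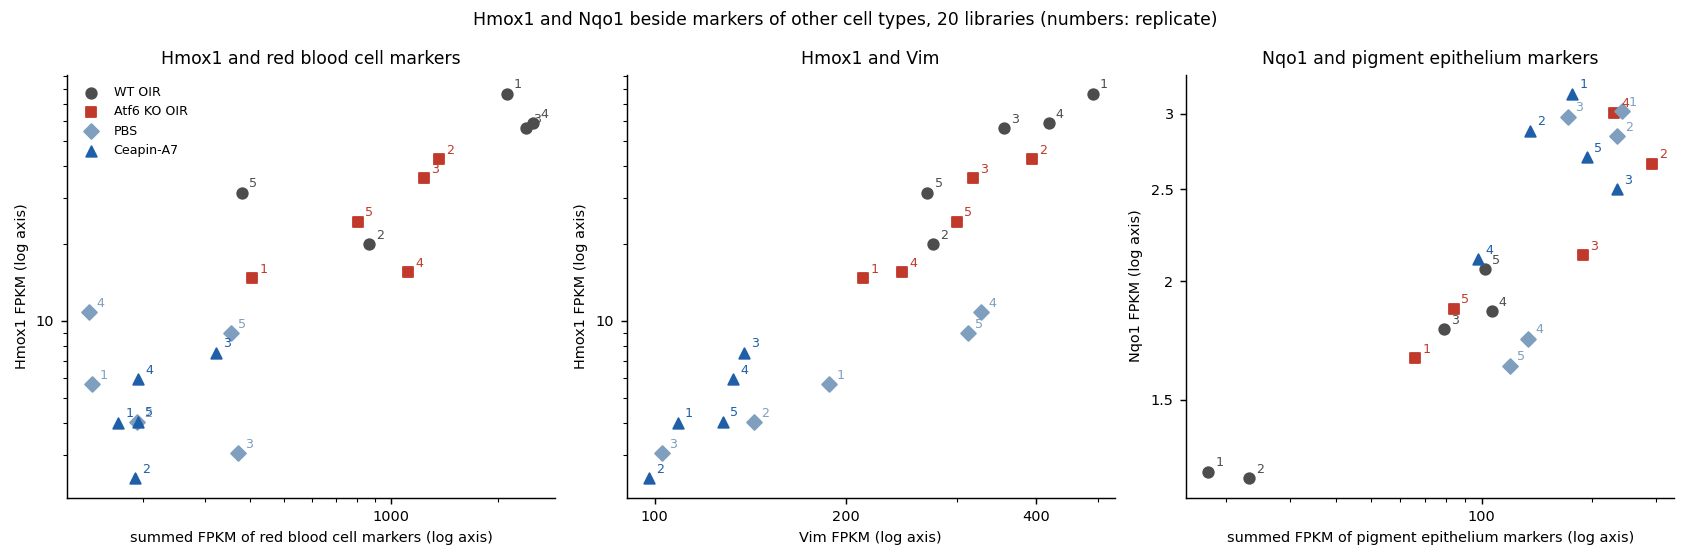
Each point is 1 library, numbered by replicate; both axes are log scaled FPKM, of Hmox1 against the summed red blood cell markers (left), Hmox1 against Vim (middle) and Nqo1 against the summed pigment epithelium markers (right). Hmox1 climbs with Vim inside each group, and the 2 Atf6+/+ OIR libraries with the least Nqo1 (1.26 and 1.24 FPKM) have the lowest pigment epithelium sums.

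Nqo1, a quinone reductase whose RNA is a common readout of NRF2 activity, was scarce throughout and higher in Atf6-/- OIR. It measured 1.26, 1.24, 1.78, 1.86 and 2.06 FPKM in Atf6+/+ OIR and 1.66, 2.66, 2.13, 3.01 and 1.87 FPKM in Atf6-/- OIR. The groups overlapped, with 3 knockout libraries above every Atf6+/+ library. The log2 difference was 0.46 ± 0.18 (SE), 1.37-fold, with a 95% interval from 0.07 to 0.84 (limma, unadjusted p 0.0246, adjusted p 0.364; exact permutation p 0.0714), and the unadjusted p exceeded 0.05 without Atf6+/+ OIR 1 (0.0618) or 2 (0.0656) and without Atf6-/- OIR 2 (0.0606) or 4 (0.067). Pigment epithelium markers, which come from the layer behind the retina that can be carried over in dissection, moved with it. Their sums were 17.97, 23.24, 78.7, 106.5 and 101.8 FPKM in Atf6+/+ OIR 1 to 5 and 65.85, 292.1, 189.2, 229.4 and 84.14 FPKM in Atf6-/- OIR 1 to 5. The libraries with the lowest sums had the least Nqo1 and the 3 with the highest sums the most. With the log2 sum of these markers as a covariate the Nqo1 difference between genotypes was 0.06 (unadjusted p 0.652), and with the red blood cell sum it was 0.48 (unadjusted p 0.0305). The pigment epithelium sums themselves differ by genotype (median 78.7 against 189.2 FPKM), so this covariate overlaps with it. Under it the genes at an unadjusted p of 0.05 or less went from 1090 higher and 912 lower to 408 and 350. The part of pigment epithelium in the Nqo1 difference was not tested beyond these values.

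The glutathione genes had like means. Gclc and Gclm encode the catalytic and the modifier subunit of glutamate-cysteine ligase, the first step of glutathione synthesis. Gclc measured 14.24, 13.72, 14.97, 15.56 and 13.73 FPKM in Atf6+/+ OIR and 14.4, 15.68, 15.69, 14.33 and 12.35 FPKM in Atf6-/- OIR. Replicate 5 of the knockout lay below every Atf6+/+ library and replicates 2 and 3 just above them, with a log2 difference of 0.02 (95% interval -0.12 to 0.15). Gclm measured 12.84, 10.06, 11.11, 10.81 and 11.05 FPKM against 9.87, 13.07, 11.78, 10.74 and 10.08 FPKM. Its log2 difference was 0.01 (95% interval -0.18 to 0.20).

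Among the thioredoxin genes, Txnrd1 (cytosolic thioredoxin reductase) measured 15.05, 12.26, 12.56, 12.47 and 12.34 FPKM in Atf6+/+ OIR and 10.63, 13.24, 11.55, 10.79 and 11.91 FPKM in Atf6-/- OIR. Of the knockout libraries 4 lay below all Atf6+/+ libraries, and the log2 difference of -0.14 did not pass the test (95% interval -0.32 to 0.05, unadjusted p 0.133; exact permutation p 0.159). Srxn1 (sulfiredoxin, which restores overoxidized peroxiredoxins) measured 31.87, 22.05, 21.51, 26.1 and 21.71 FPKM against 22.54, 23.49, 23.0, 22.07 and 21.89 FPKM. Its knockout values lay close together and inside the Atf6+/+ range (log2 difference -0.09, 95% interval -0.31 to 0.13).

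Slc7a11, the cystine importer of the xc- exchanger, was near the lower end of detection in OIR retina. It measured 0.62, 0.65, 0.73, 1.09 and 0.62 FPKM in Atf6+/+ OIR and 0.84, 1.04, 0.82, 0.75 and 0.6 FPKM in Atf6-/- OIR. The ranges nearly coincided (log2 difference 0.14, 95% interval -0.22 to 0.49, on the log2(FPKM + 0.1) scale, which understates changes of genes this low). Osgin1, an oxidative stress induced growth inhibitor, measured 3.26, 2.16, 1.85, 1.88 and 1.92 FPKM against 1.75, 2.32, 2.27, 1.5 and 2.0 FPKM, and the groups overlapped (log2 difference -0.13, 95% interval -0.51 to 0.25). Atf6-/- OIR 2 was the highest library of its group for 7 of the 10 genes (Nfe2l2, Hmox1, Gclm, Txnrd1, Srxn1, Slc7a11 and Osgin1) and Atf6+/+ OIR 1 for 6 of them (all of these but Slc7a11).

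**Figure D3:**
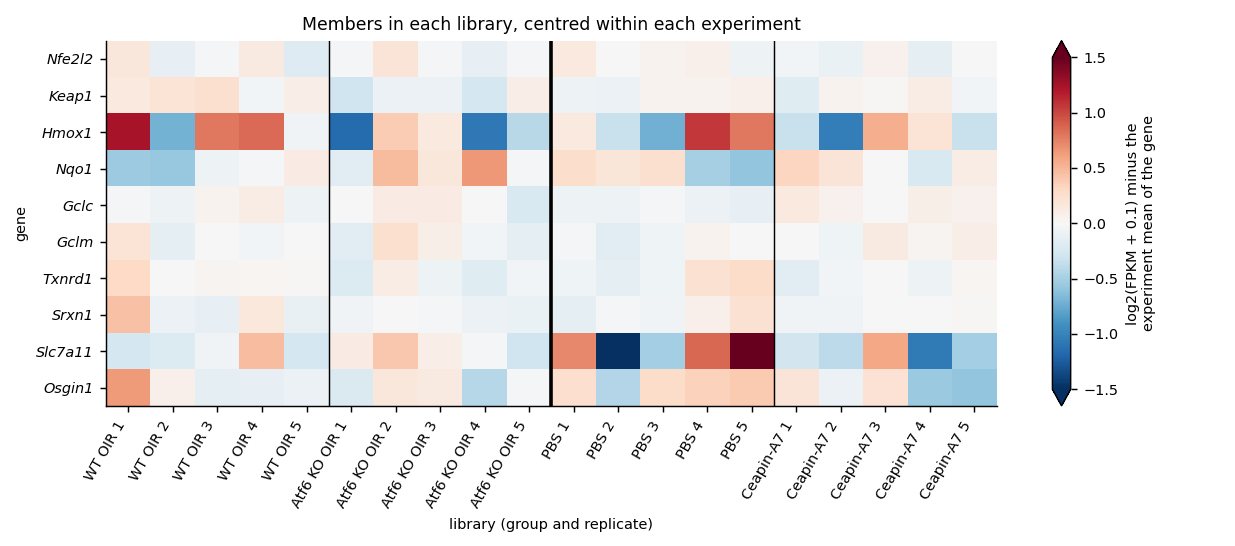
log2(FPKM + 0.1) of each gene in each of the 20 libraries minus the mean of the gene over the 10 libraries of its experiment (colour scale, clipped at 1.5 either way); the thick line separates the OIR from the injected retinas. Hmox1 in both experiments and Slc7a11 in the injected retinas vary most from library to library, and Atf6-/- OIR 2, Atf6+/+ OIR 1, PBS 5 and Ceapin-A7 3 are the highest of their groups for 7, 6, 5 and 5 of the 10 genes.

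The second comparison sets Ceapin-A7 against PBS in P30 wildtype retinas 24 h after injection. No member passed the adjusted threshold (limma, Benjamini-Hochberg over 15408 genes; adjusted p 0.472 to 0.946), and 0 of all genes (0%) did. Without adjustment 1 of the 10 had a p of 0.05 or less, Gclc, higher in Ceapin-A7, where 10.4% of all genes did (5.04% higher, 5.31% lower; with libraries rescaled to the same sum, 456 higher and 1243 lower in place of 777 and 818). By the exact permutation test the count was also 1. The median log2 difference of the 10 genes was -0.059, beside 0.00089 over all genes. PBS 4 and 5, the libraries with few rod transcripts, held the highest values of the PBS group for Keap1, Hmox1, Gclm, Txnrd1, Srxn1, Slc7a11 and Osgin1, and the lowest for Nqo1 and Gclc, so each member's result is given with and without them. The PBS libraries that then remain include PBS 2 and 3, which lay nearer to the Ceapin-A7 mean.

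Gclc was the only member whose groups did not overlap. It measured 12.8, 12.81, 13.23, 12.71 and 12.42 FPKM in PBS and 14.98, 14.13, 13.6, 14.35 and 14.1 FPKM in Ceapin-A7. Every Ceapin-A7 library exceeded every PBS library, as was the case for 135 of the 15408 genes tested (0.876%; 1.34% in either direction). The means were 12.8 ± 0.29 and 14.2 ± 0.50 FPKM (SD, n = 5 each), a log2 difference of 0.15 ± 0.04 (SE), 1.11-fold, with a 95% interval from 0.06 to 0.25 (limma, unadjusted p 0.00444, adjusted p 0.472). The exact permutation p was 0.00794, the smallest that 5 against 5 can give. The unadjusted p was 0.05 or less in all 27 alternative fits, which include leaving out each library, and the adjusted p lay between 0.195 and 0.991 in them. Without PBS 4 and 5, which held the lowest PBS values, the log2 difference was 0.12 (unadjusted p 0.0279), and with the lens sum as a covariate it was 0.15 (unadjusted p 0.00817). The modifier subunit Gclm measured 13.86, 12.7, 13.51, 14.76 and 14.23 FPKM in PBS and 14.22, 13.52, 15.6, 14.54 and 15.16 FPKM in Ceapin-A7. It was higher by 0.08 on the log2 scale in overlapping groups (95% interval -0.02 to 0.18), and by 0.11 without PBS 4 and 5.

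The regulators were nearly level. Nfe2l2 measured 14.65, 13.26, 13.67, 13.89 and 12.55 FPKM in PBS and 12.85, 12.3, 13.77, 12.04 and 13.14 FPKM in Ceapin-A7. The groups overlapped, with a log2 difference of -0.08 (95% interval -0.21 to 0.04, unadjusted p 0.157). Without PBS 5 it was -0.12 (unadjusted p 0.039), and without PBS 4 and 5 it was -0.13 (unadjusted p 0.0459). Keap1 measured 18.04, 17.84, 19.69, 19.73 and 20.05 FPKM against 16.74, 19.65, 19.27, 20.5 and 18.47 FPKM, with a log2 difference of -0.01 (95% interval -0.13 to 0.11) whose sign turned without PBS 4 and 5 and with the lens covariate (0.01 in both).

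Hmox1 measured 5.67, 4.03, 3.06, 10.81 and 8.95 FPKM in PBS and 4.02, 2.44, 7.52, 5.93 and 4.05 FPKM in Ceapin-A7. PBS 4 and 5 were above every Ceapin-A7 library and the other 3 PBS libraries lay within the Ceapin-A7 range. The log2 difference was -0.38 (95% interval -1.16 to 0.40), and 0.10 without PBS 4 and 5. Nqo1 measured 3.02, 2.84, 2.98, 1.74 and 1.63 FPKM in PBS and 3.15, 2.88, 2.5, 2.11 and 2.7 FPKM in Ceapin-A7. Its log2 difference was 0.16 (95% interval -0.27 to 0.59) and turned to -0.17 without PBS 4 and 5, which also had the lowest pigment epithelium sums of their group (133.7 and 119.3 FPKM against 172.2 to 240.9). In Ceapin-A7 1 to 5 these sums were 176.55, 135.82, 234.24, 97.99 and 193.58 FPKM. There the library with the lowest sum had the least Nqo1, but the library with the highest sum did not have the most.

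Txnrd1 measured 17.19, 16.36, 17.18, 20.99 and 21.81 FPKM in PBS and 15.91, 17.49, 17.96, 17.07 and 18.25 FPKM in Ceapin-A7. Srxn1 measured 29.55, 32.21, 31.4, 34.32 and 38.36 FPKM against 31.47, 31.54, 32.56, 32.74 and 33.18 FPKM. For both, PBS 4 and 5 exceeded all 5 Ceapin-A7 libraries and the rest of PBS did not, and the log2 differences of -0.10 (95% interval -0.26 to 0.06) and -0.03 (-0.15 to 0.09) became 0.02 and 0.04 without them.

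Slc7a11 varied more than any other member here. It measured 2.31, 0.39, 0.92, 2.55 and 6.43 FPKM in PBS and 1.1, 1.01, 2.07, 0.6 and 0.92 FPKM in Ceapin-A7. The lowest and the highest library of the series were both in PBS, and the log2 difference of -0.67 had a 95% interval from -1.93 to 0.60; it was -1.14 without PBS 2 (unadjusted p 0.0357) and 0.11 without PBS 4 and 5. Osgin1 measured 1.28, 0.76, 1.31, 1.38 and 1.43 FPKM in PBS and 1.23, 0.99, 1.25, 0.69 and 0.67 FPKM in Ceapin-A7. Of the PBS libraries 4 lay above all Ceapin-A7 libraries and PBS 2 among the low ones. The log2 difference was -0.33 (95% interval -0.79 to 0.13), -0.48 without PBS 2 (unadjusted p 0.0301), and -0.21 without PBS 4 and 5.

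**Figure D4:**
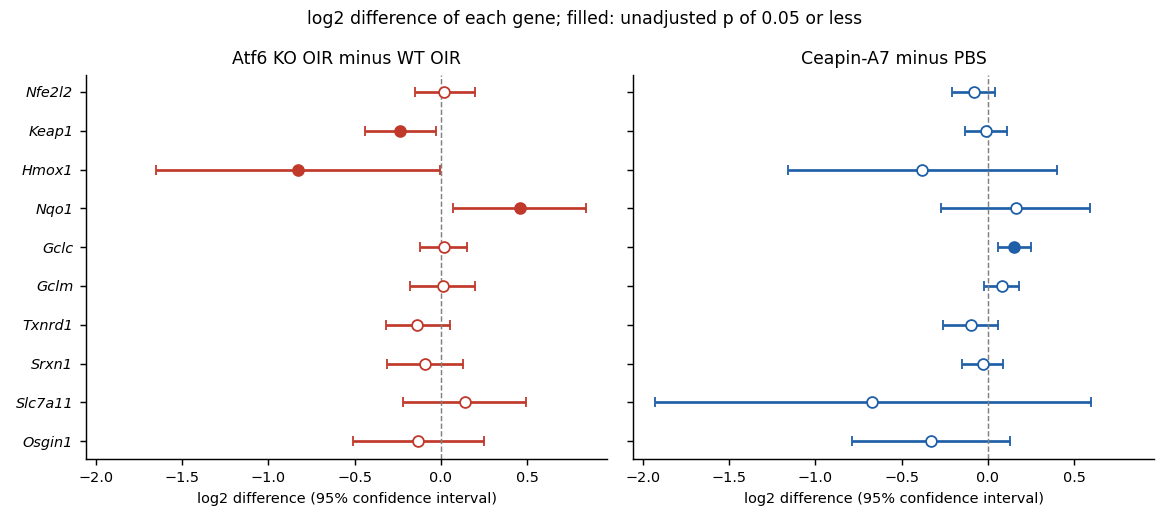
log2 difference of each gene (x axis; points, with 95% confidence intervals from limma) for Atf6-/- OIR minus Atf6+/+ OIR (left) and Ceapin-A7 minus PBS (right); filled points have an unadjusted p of 0.05 or less. Intervals are narrow for Gclc, Gclm, Keap1 and Srxn1 and wide for Hmox1 and Slc7a11, and the filled points are Keap1 (-0.24), Hmox1 (-0.83) and Nqo1 (0.46) on the left and Gclc (0.15) on the right.

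Whether the effect of the knockout in OIR differed from that of Ceapin-A7 was tested in a fit of all 20 libraries. Age, oxygen exposure, injection and the duration of the block also differ between the experiments. The contrast thus does not isolate loss of ATF6 from its inhibition. The difference of the log2 differences passed an adjusted p of 0.05 for 0 of the 10 genes (limma, 15628 genes; adjusted p 0.544 to 0.943; 0.032% of all genes passed), and 0 of the 10 had a p of 0.05 or less without adjustment (9.19% of all genes). The nearest was Keap1, lower by 0.24 in Atf6-/- OIR and level after Ceapin-A7, with a difference of -0.22 (95% interval -0.45 to 0.003, unadjusted p 0.0529). With array weights its adjusted p was 0.0493 (limma), in a fit in which 4.76% of all genes passed. For Gclc, level in the knockout and higher after Ceapin-A7, the difference was -0.13 (95% interval -0.29 to 0.02, unadjusted p 0.0931). The interval of Slc7a11, from -0.52 to 2.13, leaves room for a difference of several fold.

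The levels of several genes stood further apart between the experiments than between the arms of either. Hmox1 averaged 48.6 FPKM in Atf6+/+ OIR, 26.6 in Atf6-/- OIR, 6.50 in PBS and 4.79 in Ceapin-A7, a ratio of 10.1 between the highest and the lowest mean, and every OIR library (14.63 to 76.56 FPKM) exceeded every injected one (2.44 to 10.81 FPKM). Nfe2l2 (16.96 to 22.18 against 12.04 to 14.65 FPKM) and Osgin1 (1.5 to 3.26 against 0.67 to 1.43 FPKM) were also higher in OIR without overlap. Txnrd1 was lower in OIR without overlap, at 10.63 to 15.05 FPKM against 15.91 to 21.81 FPKM. Gclm, Srxn1, Slc7a11 and Nqo1 averaged less in OIR, Keap1 and Gclc were within 1.02-fold and 1.07-fold, and these 6 overlapped. The NRF2 targets thus stood in no single direction between the experiments. Age, oxygen exposure and injection all differ between them and cannot be told apart, the tables were made per group, and no test was run. Within each experiment the neighbouring groups overlapped for every gene except Gclc.

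Over the 20 libraries, with each group centred on its mean, the genes whose log2 values were most like those of Nfe2l2 among 12997 genes with a mean of at least 1 FPKM were Bcat2 (Pearson r 0.854), Sting1 (0.796) and Tmem176b (0.781). Those most like Hmox1 were Bcl3 (r 0.946), Kdelr3 (0.934) and S100a16 (0.921). Among the members themselves the most alike pairs were Hmox1 and Gclm (r 0.743), Txnrd1 and Srxn1 (0.686) and Gclm and Txnrd1 (0.681). The least alike were Nqo1 and Txnrd1 (-0.561, and -0.387 without PBS 4 and 5). Without PBS 4 and 5 the least alike were Keap1 and Gclc (-0.517, and -0.525 over all 20 libraries). The values describe these libraries, whose points share scaling, and carry no test.

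A further 51 genes of antioxidant defence and its regulation set the members in a wider context. The list mixes small MAF partners of NRF2 with ubiquitin ligase genes such as Cul3 and Btrc. Counts above or below 0 therefore do not give the direction of the pathway. None passed the adjusted threshold in either experiment (smallest adjusted p 0.358 in OIR and 0.472 after Ceapin-A7). Without adjustment 7 of the 51 had a p of 0.05 or less in OIR (13.7%, beside 12.7% of all genes), 6 higher and 1 lower in Atf6-/- OIR, and after Ceapin-A7 again 7 (13.7%, beside 10.4%), 6 higher and 1 lower. Both shares lay near that of all genes. The median log2 difference was 0.060 in OIR, where 34 of the 51 lay above 0 (50.7% of all genes did), and 0.081 after Ceapin-A7, where 39 of the 51 did (50.3% of all genes). With the pigment epithelium sum as a covariate 25 of the 51 lay above 0 in OIR, and without PBS 4 and 5 the Ceapin-A7 median was 0.023 with 33 above 0. When libraries were rescaled to the same sum, which moved the median of all genes to -0.037 after Ceapin-A7, 31 of the 51 lay above 0 there.

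In OIR the lowest p-values of these genes were those of Prdx6, G6pdx and Gstm2. Prdx6, a peroxiredoxin that uses glutathione, measured 50.13, 55.28, 52.59, 58.42 and 54.51 FPKM in Atf6+/+ OIR and 80.6, 66.03, 57.77, 67.81 and 56.7 FPKM in Atf6-/- OIR. Of the knockout libraries 3 lay above all Atf6+/+ libraries, and the log2 difference was 0.29 ± 0.09 (SE; unadjusted p 0.00592, adjusted p 0.358). G6pdx, the glucose-6-phosphate dehydrogenase that feeds NADPH to glutathione and thioredoxin, averaged 46.1 against 52.3 FPKM (log2 difference 0.20, unadjusted p 0.0122), and Gstm2, a glutathione transferase, 1.98 against 3.10 FPKM (0.63, unadjusted p 0.0193). The unadjusted p of G6pdx was 0.102 with the pigment epithelium covariate and 0.0706 with the lens covariate, while those of Prdx6 (0.0157 and 0.0162) and Gstm2 (0.0468 and 0.0498) stayed under 0.05. All 8 genes listed under thioredoxin and peroxiredoxin lay above 0 (0.06 to 0.29), 1 of them past the unadjusted threshold. With the pigment epithelium covariate 4 of the 8 lay above 0. The 8 include Txnip (0.23), an inhibitor of thioredoxin, so the count does not stand for a single function. Of the 11 glutathione genes 3 passed the unadjusted threshold, all higher, namely Gstm1, Gstm2 and Mgst1 (27.3%, beside 12.7% of all genes), and 1 of the 11 did with the pigment epithelium covariate, under which the median of the 11 went from 0.096 to 0.003. Of the 10 regulators 2 passed it, Btrc (0.12), a ubiquitin ligase component, and Maff (-0.87), a small MAF partner of NRF2. Maff stood at 7.54 FPKM in Atf6+/+ OIR 1 against 1.33 to 3.15 FPKM in the others of that group and 1.13 to 2.19 in the knockout. Genes beyond the first 3 were named after their values were seen.

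After Ceapin-A7 the lowest p-values were those of Gpx1, Mafg and Gsta3. Gpx1, glutathione peroxidase, measured 46.95, 46.19, 43.62, 45.59 and 45.5 FPKM in PBS and 45.88, 48.07, 53.65, 54.67 and 52.5 FPKM in Ceapin-A7. Of the Ceapin-A7 libraries 4 exceeded all PBS libraries, and the log2 difference was 0.16 ± 0.05 (SE; unadjusted p 0.00706, adjusted p 0.472). Gsta3, a glutathione transferase, measured 5.45, 1.57, 3.56, 2.67 and 2.73 FPKM in PBS and 8.73, 7.94, 15.16, 3.39 and 3.63 FPKM in Ceapin-A7. Ceapin-A7 1 to 3 lay above all PBS libraries and the other two within the PBS range, with a log2 difference of 1.15 (unadjusted p 0.0183). Without PBS 4 and 5 the unadjusted p of Gsta3 was 0.0732, and those of Gpx1 (0.0351) and Mafg (0.0303) stayed under 0.05. Mafg, the most abundant small MAF here, averaged 39.4 against 35.6 FPKM (-0.14, unadjusted p 0.0151). Of the 10 regulators 9 lay below 0 after Ceapin-A7 and 4 did without PBS 4 and 5, where Maff had stood at 3.41 and 5.37 FPKM against at most 0.83 in the remaining injected libraries. As in OIR, all 8 genes listed under thioredoxin and peroxiredoxin, the inhibitor Txnip (0.27) among them, lay above 0 after Ceapin-A7. Without PBS 4 and 5, 6 of the 8 did. Of the 11 glutathione genes 10 lay above 0 (50.3% of all genes did), and 8 without PBS 4 and 5. The same pair of PBS libraries had the lowest Prdx6 of the group (45.59 and 36.62 FPKM against 66.89 to 75.03).

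**Figure D5:**
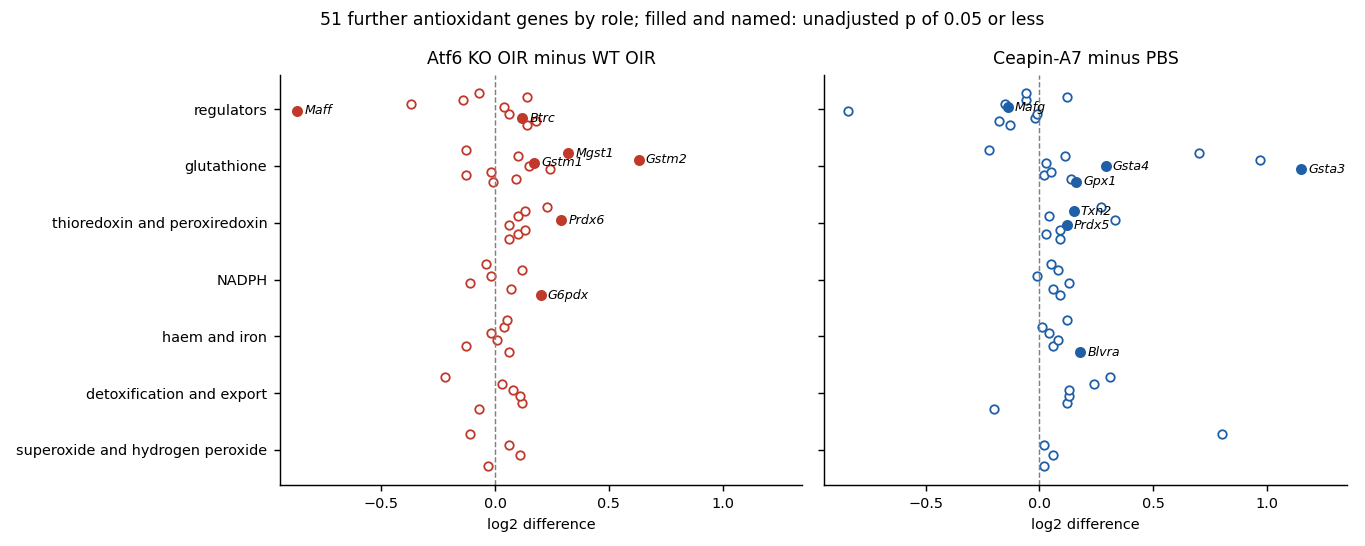
log2 difference (x axis) of 51 further antioxidant genes, grouped by role (y axis), for Atf6-/- OIR minus Atf6+/+ OIR (left) and Ceapin-A7 minus PBS (right); each point is a gene, and filled, named points have an unadjusted p of 0.05 or less. In both panels 7 of the 51 points are filled, and most points lie within 0.3 of 0.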

How the data were processed

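The authors sequenced stranded mRNA libraries (DNBSEQ, paired-end reads of 100 bp), aligned them to GRCm39 with HISAT2 (2.0.4), estimated expression with RSEM (1.2.18) and used DESeq2 (1.4.5) for their own comparisons; they deposited FPKM per gene to 2 decimals, in 1 table per group. FPKM are divided by the mapped fragments of each library, so no count model or counting interval could be derived from them. The fragment number of each library was not derived either. All 20 columns were used.

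Here FPKM of each experiment were divided by median-of-ratios factors. Genes with a mean FPKM above 0.1 were tested on log2(FPKM + 0.1) with limma (3.58.1, R 4.3.3; eBayes with trend), with Benjamini-Hochberg adjustment over all genes. Calls needed an adjusted p under 0.05; counts of genes with a raw p of 0.05 or less, the threshold of the study, stand beside them. Exact permutation tests were two-sided. On simulated OIR data 94.5% of 200 genes changed 2-fold were called, and on simulated Ceapin-A7 data 93.5%. The changed genes were drawn from those with a mean of at least 1 FPKM. Noise was drawn independently for each gene and library, without shared library effects such as lens RNA. Whether these shares hold for the measured libraries, where 5 genes were called in OIR and 0 after Ceapin-A7, was not tested. Measured differences not called include Gsta3 after Ceapin-A7 (2.21-fold, adjusted p 0.472, limma) and Hmox1 in OIR (0.564-fold, adjusted p 0.39, limma).

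Named genes are the 10 members, the 3 further antioxidant genes with the smallest p per experiment when none was called, the 3 genes most like Nfe2l2 and Hmox1, and Atf6; others were named after their values were seen. The members, lists and tests were chosen with earlier results of these data known. GC content and promoters came from GRCm38, matched by symbol (GC content for 97% of genes or more in either experiment), and no GRCm39 coordinates are given. A rod marker is not reported here and was left out of the rod marker sum.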

Additional observations from a re-analysis of the deposited data

Results flagged for a closer look

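In 4 of the 40 sets of a gene and a group, the highest or the lowest of the 5 libraries stood apart from the others by Dixon's test at the 95% level, which chance alone flags in about 1 set in 20. Txnrd1 in Atf6+/+ OIR 1 was 15.05 FPKM, against 12.26 to 12.56 in the other 4 libraries. Osgin1 in the same library was 3.26 FPKM, against 1.85 to 2.16. Slc7a11 in Atf6+/+ OIR 4 was 1.09 FPKM, against 0.62 to 0.73. Osgin1 in PBS 2 was 0.76 FPKM, against 1.28 to 1.43.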

How the results depend on the processing

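The wide spread of Hmox1 and Slc7a11, and lens RNA in several libraries, limit what 5 libraries a group could show. No member was called at an adjusted p under 0.05 in either experiment in any alternative fit except that with array weights, where 1 member was called in OIR (Keap1) and 1 for the difference of the effects (Keap1), and 6 of the 51 further genes in OIR, in fits that called 17.6% of all genes in OIR and 4.76% for the difference. Leaving out each library in turn gave 0 adjusted calls of members and of further genes throughout.

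At an unadjusted p of 0.05 or less, the 3 members in OIR became 0 by the exact permutation test and 1 with the pigment epithelium covariate, and 0 to 3 with a library left out (0 without Atf6+/+ OIR 1 or Atf6-/- OIR 4, 1 without Atf6+/+ OIR 2 or 3 or Atf6-/- OIR 1). The 1 member after Ceapin-A7 became 2 at the same sum and without PBS 4 and 5, 3 with Ddx3y as a covariate, and 1 to 3 with a library left out (3 without PBS 2, 2 without PBS 5). For the difference of the effects, 0 members became 1 on FPKM as deposited, with quantile normalization, array weights or the replicate block and without PBS 4 and 5, and 0 to 1 with a library left out (1 without Atf6+/+ OIR 4, Atf6-/- OIR 5, PBS 2, PBS 3 or Ceapin-A7 1). The 7 further genes in OIR became 16 with array weights, 3 with the replicate block, the fit of all 20 libraries or the pigment epithelium covariate, 4 with the red blood cell covariate, and 3 to 15 with a library left out (15 without Atf6+/+ OIR 4, 11 without Atf6-/- OIR 5, 4 without Atf6+/+ OIR 1 or 2, 3 without Atf6-/- OIR 1 or 2). After Ceapin-A7 the 7 became 4 with no filter, the same sum, array weights or the lens covariate, 3 without trend, 11 with Ddx3y, 13 with the pigment epithelium covariate, 2 without PBS 4 and 5, and 3 to 12 with a library left out (12 without PBS 2, 3 or 4 without PBS 4 or 5 or Ceapin-A7 2, 3 or 5). The pigment epithelium, red blood cell and lens covariates and the joint omission of PBS 4 and 5 were chosen after seeing the data. The counts over all genes moved with the same settings, so these changes are not particular to the antioxidant genes. In OIR the 1090 higher and 912 lower genes became 2735 and 3014 with array weights. They became 408 and 350 with the pigment epithelium covariate and 1754 and 2008 without Atf6+/+ OIR 4. After Ceapin-A7 the 777 higher and 818 lower became 1248 and 1281 without PBS 2, and 401 and 368 without PBS 4 and 5. The cause of these changes was not tested.

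Replicate numbers did not pair the libraries (correlation of same-numbered libraries -0.257 to 0.208 in OIR and -0.217 to 0.311 after Ceapin-A7), and with the replicate block no member was called.

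Signs turned only for log2 differences whose intervals span 0. In OIR these were Nfe2l2 (-0.0019 at the same sum, -0.056 with GC correction, -0.097 with the lens covariate; -0.018 to 0.073 with a library left out), Gclc (-0.0054 at the same sum, -0.031 with the pigment epithelium covariate, -0.014 with the lens covariate; -0.0057 to 0.055), Gclm (-0.012 as deposited, -0.018 at the same sum, -0.0076 with GC correction, -0.014 with the pigment epithelium covariate, -0.027 with the lens covariate; -0.045 to 0.064), Srxn1 (0.045 with GC correction, 0.024 with the pigment epithelium covariate; -0.14 to 0.013), Slc7a11 (-0.045 with the pigment epithelium covariate) and Osgin1 (0.01 with GC correction, 0.083 with the pigment epithelium covariate; -0.19 to 0.02). After Ceapin-A7, without PBS 4 and 5, they were Keap1 (0.012), Hmox1 (0.098), Nqo1 (-0.17), Txnrd1 (0.017), Srxn1 (0.04) and Slc7a11 (0.11); Keap1 also turned with GC correction (0.012) and the lens covariate (0.01; -0.038 to 0.027 with a library left out) and Srxn1 with array weights (0.0075; -0.07 to 0.014). For the difference of the effects, Srxn1 turned with GC correction (0.048; -0.1 to 0.046 with a library left out), as did Txnrd1 with a library left out (-0.084 to 0.028).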
